A study of Homo sapiens with 6 samples.

Results

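Open chromatin was compared between 2 sides of 3 leukaemia cell lines each, CCRF-CEM, DND-41 and KOPT-K1 against HBP-ALL, MOLT-4 and TALL-1. All 6 are established T-ALL lines, grown out of leukaemias of developing T cells (T-cell acute lymphoblastic leukaemia), and each is represented by 1 ATAC-seq library of cells grown in RPMI-1640 medium, with no treatment or control in the labels. The sides were chosen from these data: at regions open in every line, the first 3 lines had relatively higher peaks where such regions are sparse, and the other 3 where they are dense. Members are merged peak regions with a peak in all 3 lines of one side and in at most 1 line of the other. Of 40110 merged regions on chromosomes 1 to 22 and X, 712 (1.78%) were sparse-leaning members and 758 (1.89%) were dense-leaning members, 1470 in all. Because the rule uses peak presence in the libraries described here, both counts are a description, and no test between the sides is given. With 1 library per line, line and library cannot be told apart.

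In ATAC-seq a transposase, Tn5, inserts sequencing adapters into accessible DNA, so that many tags mark promoters, enhancers and other open sites. Active promoters tend to be open in most cell types, whereas enhancers vary more between them. Sites that differ between T-ALL lines often lie away from promoters, in enhancers tied to the stage of thymocyte arrest and to the driver oncogene. As background, DND-41 and HBP-ALL are known for TLX3 rearrangements and CCRF-CEM and MOLT-4 for expression of TAL1, so each of these oncogene pairs is divided between the 2 sides. A missing peak means that no call passed the authors' threshold, not that the chromatin was measured as closed. The files give hg19 positions without genes or sequence, and no annotation of that build was used here, so T-cell marker genes were not checked.

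TALL-1 had the shortest list, with 16507 intervals, and CCRF-CEM the longest, with 22367. Read totals are not known here. A relative tag depth, from the lowest recovered background per base of the shortest interval and set to 1 in CCRF-CEM, was 1.55 in KOPT-K1 and 1.70 in DND-41 on the sparse-leaning side, and 1.35 in MOLT-4, 1.93 in HBP-ALL and 2.096 in TALL-1 on the other side. The lowest pileup called, a pileup being the number of tags stacked at a summit, ran from 6 in CCRF-CEM to 9 in TALL-1. These differences move with single lines, and their part in the results below was not tested.

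The lean that chose the sides was strong in some lines and slight in others. Relative pileup, the log2 pileup relative to the 6-line mean with each line's own median set to 0, was taken over 9042 regions with peaks in every line, put into 3 equal groups by the number of other shared regions within 500 kb. CCRF-CEM stood at 0.28 in the sparsest group and −0.28 in the densest. DND-41 (0.07 and −0.07) and KOPT-K1 (0.07 and −0.08) leaned the same way, but far less. On the other side MOLT-4 rose from −0.16 to 0.18 and TALL-1 from −0.19 to 0.16, whereas HBP-ALL went only from −0.08 to 0.06. When the authors' fold enrichment over the local background replaced the pileup, every lean kept its sign but shrank, that of CCRF-CEM from −0.56 to −0.17 between the outer groups and that of KOPT-K1 from −0.15 to −0.012.

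**Figure D1:**
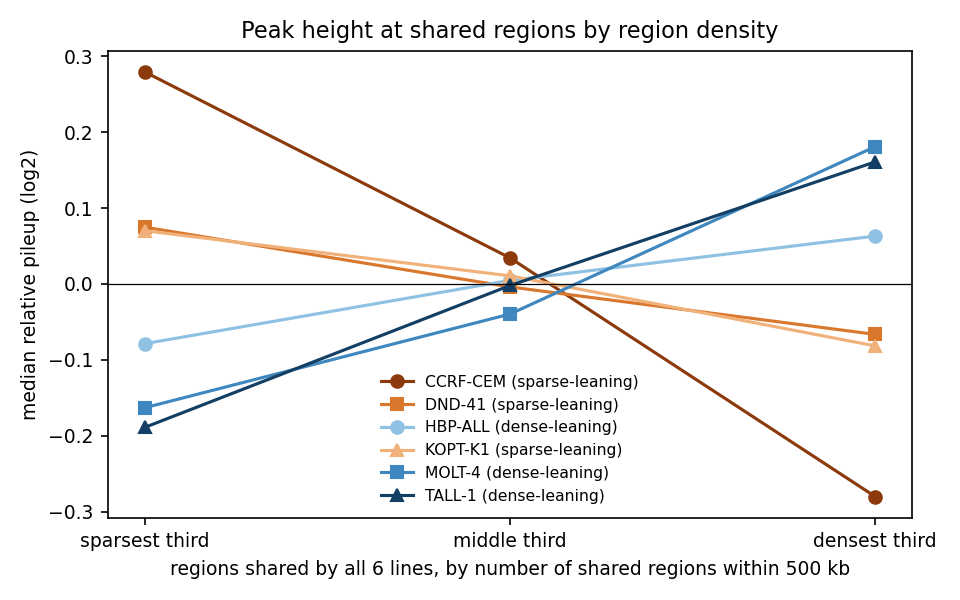
Median relative pileup (log2, vertical axis) at regions with peaks in all 6 lines, in 3 equal groups by density of such regions within 500 kb. Each line of points is 1 library; CCRF-CEM falls from 0.28 to −0.28, and DND-41, KOPT-K1 and HBP-ALL change least.

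Most members had a peak in 1 line of the opposite side. Among sparse-leaning members 201 had none, 227 shared a peak with MOLT-4, 176 with HBP-ALL and 108 with TALL-1. Among dense-leaning members 208 had none, 241 shared a peak with DND-41, 210 with KOPT-K1 and 99 with CCRF-CEM. TALL-1 and CCRF-CEM, the lines with the fewest and the most intervals, were thus each the least frequent partner of the opposite side. Each also had the fewest partly shared regions of its side, those with peaks in more than 1 line but not in every line. These numbered 5795 in TALL-1, against 8166 in HBP-ALL and 8098 in MOLT-4. In CCRF-CEM they numbered 6740, against 7285 in DND-41 and 7414 in KOPT-K1. The order of partners was therefore not particular to members. Just beyond the rule, 1151 regions had peaks in all 3 sparse-leaning lines and 2 of the others, and 1469 in all 3 dense-leaning lines and 2 of the others.

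The same rule was applied to all 20 sets of 3 lines as a reference. HBP-ALL, MOLT-4 and TALL-1 came 6th with 758 members, and CCRF-CEM, DND-41 and KOPT-K1 came 8th with 712. The range ran from 334 for CCRF-CEM, KOPT-K1 and TALL-1 to 1063 for HBP-ALL, KOPT-K1 and MOLT-4. A region with peaks in 4 lines counts in 4 of these sets, so the counts are not independent. Of the 10 ways to divide the lines 3 against 3, the division by lean came 2nd with 1470 members, after CCRF-CEM, DND-41 and TALL-1 against the rest with 1483, and the lowest total was 1138. Its 2 sides were nearly even, whereas the division ranked 1st combined 420 with 1063. By number of members the lean therefore did not stand apart from other divisions of these lines.

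**Figure D2:**
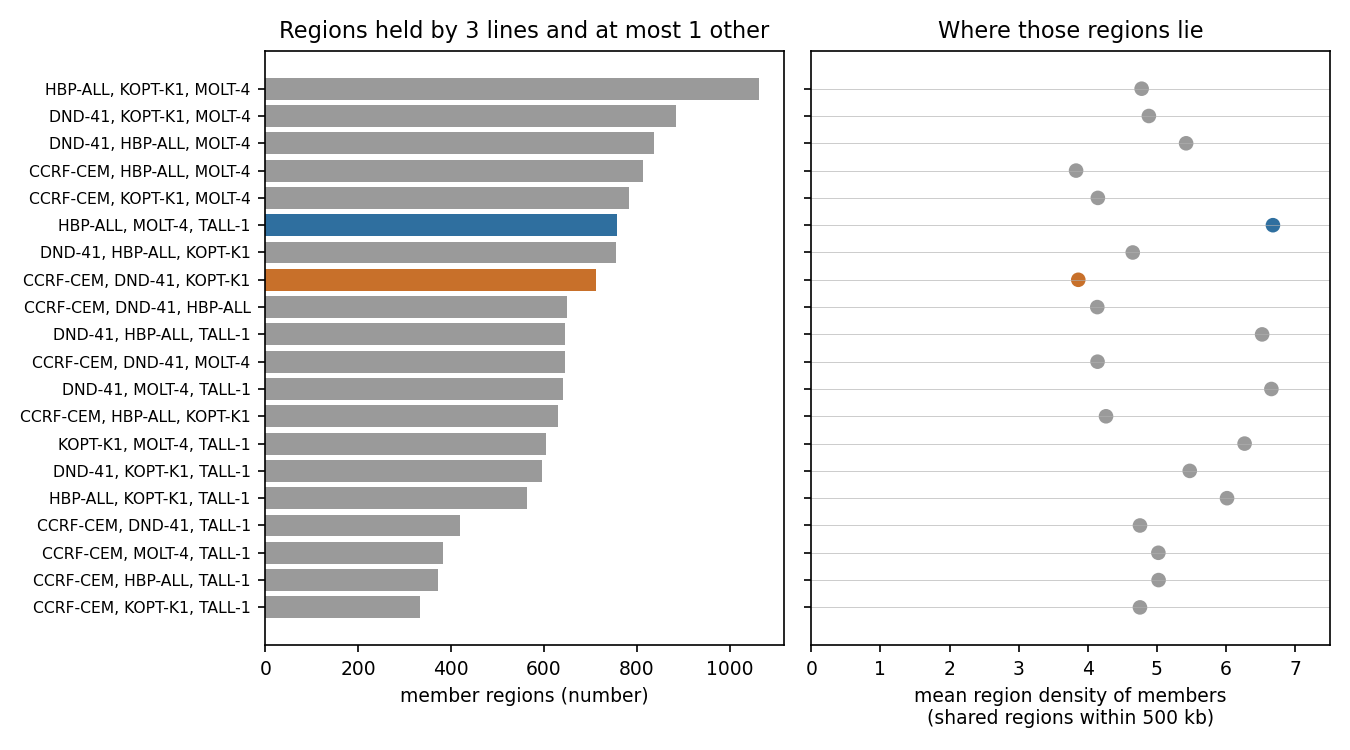
Number of regions held by all lines of a set of 3 and at most 1 other line (bars, left) and the mean number of shared regions within 500 kb of them (points, right) for all 20 sets. The sparse-leaning set is orange (712 regions, mean density 3.86) and the dense-leaning set blue (758 regions, mean density 6.68).

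Members of the 2 sides lay in different surroundings. Region density is the number of regions shared by all 6 lines within 500 kb on each side. It had a mean of 3.86 and a median of 3 at sparse-leaning members, against a mean of 6.68 and a median of 6 at dense-leaning members. All merged regions had a mean of 4.69, and regions with a peak in 3 or 4 lines that were no members also had 4.69. Among sparse-leaning members 40.2% (exact binomial 95% interval 36.5% to 43.9%) lay in the sparsest class, with at most 2 shared regions nearby, and 24.0% in the densest, with more than 5. Over all merged regions these shares were 36.2% and 32.4%. In the sparsest class sparse-leaning members thus stood only a little above all regions. Dense-leaning members had 17.4% in the sparsest class and 52.9% (49.3% to 56.5%) in the densest. Regions shared by all 6 lines came close to this, with 19.7% and 48.4% and a mean density of 6.48. So did regions just outside the rule, with all 3 dense-leaning lines and 2 of the others, at 19.6% and 50.6%. Dense surroundings were thus not particular to dense-leaning members. The intervals cover counting error only. The members are not among the shared regions whose heights chose the sides, but they come from the same libraries. The difference between the sides is therefore no independent support for the lean.

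The share of regions that were members rose with density on the dense-leaning side up to 10 to 14 shared regions nearby. Dense-leaning members made up 0.665% of regions with no shared region nearby, 1.06% at 1 to 2, 1.78% at 3 to 5, 2.87% at 6 to 9 and 3.49% at 10 to 14, with 3.39% beyond. Sparse-leaning members made up 1.59% at 0 and 2.20% at 1 to 2, and 0.786% at 10 to 14. Hence 29.5% of the members with no shared region nearby, but 81.6% of those with 10 to 14, were dense-leaning.

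**Figure D3:**
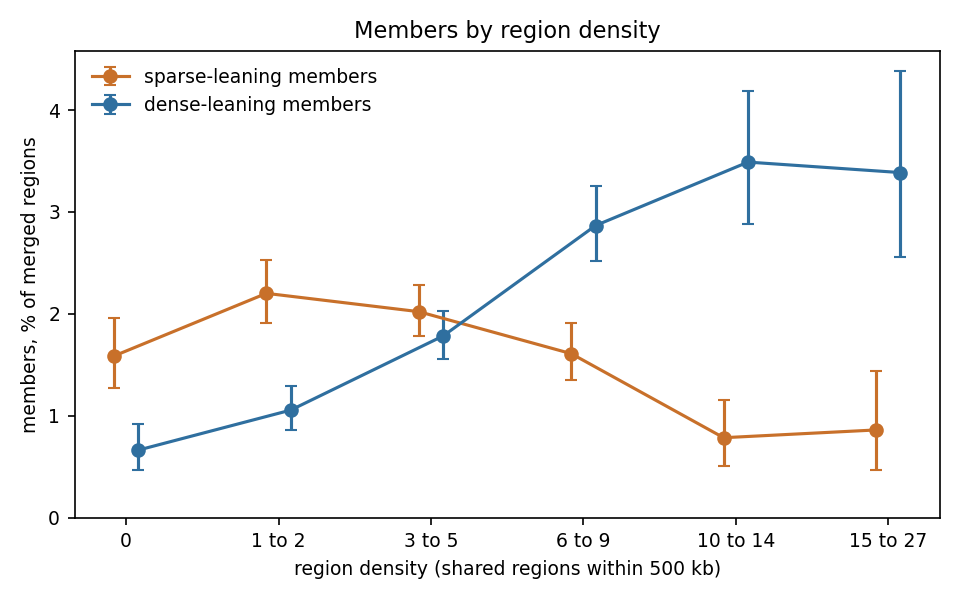
Sparse-leaning (orange) and dense-leaning (blue) members as a percentage of all merged regions, by number of shared regions within 500 kb. Bars are exact 95% binomial intervals, which cover counting error only; the lines cross between 3 to 5 (2.02% and 1.78%) and 6 to 9 (1.61% and 2.87%).

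Across the 20 sets the density of members moved with the presence of CCRF-CEM and TALL-1. The 6 sets with CCRF-CEM but not TALL-1 had mean densities from 3.83 to 4.26, and the 6 sets with TALL-1 but not CCRF-CEM had 5.47 to 6.68. The 4 sets with both (4.75 to 5.02) and the 4 with neither (4.65 to 5.42) lay between them. The dense-leaning set had the highest mean density of the 20, 6.68. It stood only just above DND-41, MOLT-4 and TALL-1 (6.66) and near DND-41, HBP-ALL and TALL-1 (6.52), which both include a sparse-leaning line. The sparse-leaning set had the second lowest, just above CCRF-CEM, HBP-ALL and MOLT-4. Leaving out a line also loosens the rule, because fewer lines must share a peak, and it moved the count of members of each side by more than 1.5 times. Without TALL-1, members of the dense-leaning side, then regions with peaks in HBP-ALL and MOLT-4 and at most 1 of the other lines, numbered 2181, of which 40.1% lay in the sparsest class and 31.6% in the densest. The sparse-leaning side then had 43.6% and 23.9%, so that the difference in the sparsest class was nearly gone. Without CCRF-CEM the dense-leaning side had 27.03% in the sparsest class and 48.4% in the densest, and the sparse-leaning side 48.3% and 21.4%. Region density was then counted anew from regions shared by the remaining lines, and its classes were cut anew. The parts of the line itself, of the looser rule and of the new classes cannot be told apart in these values.

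Chromosomes were divided unevenly between the sides. On chromosome 19, the most gene-dense human chromosome, 87 members were dense-leaning and 1 was sparse-leaning, and on chromosome 17 the numbers were 91 and 7. Chromosome 22 held 38 and 1, chromosome 20 held 32 and 7, chromosome 15 held 34 and 8, and chromosome 21 held 11 and 1. In the other direction, chromosome 18, which is gene-poor, held 6 dense-leaning and 27 sparse-leaning members, chromosome 3 held 28 and 76, chromosome 4 held 24 and 53, and chromosome 2 held 32 and 68. Chromosomes 17, 19 and 22 together held 28.5% of dense-leaning members, 1.26% of sparse-leaning ones and 7.63% of all merged regions. Over the 23 chromosomes the dense-leaning percentage of members had a Pearson r of 0.618 (Spearman rho 0.632) with the number of protein-coding genes per Mb in RefSeq's GRCh38 table, and an r of 0.464 (rho 0.521) without chromosomes 17 and 19. Single chromosomes departed from this order. Chromosome 13, with the fewest such genes per Mb (2.96), held 17 dense-leaning and 21 sparse-leaning members. Chromosome 21, mostly dense-leaning, had 5.13 genes per Mb, and chromosome 1, with 8.28, held 45 and 75. Chromosomes share the same 6 libraries, and these correlations are a description without a p-value. Without chromosomes 17, 19 and 22, 46.7% of dense-leaning and 23.5% of sparse-leaning members still lay in the densest class.

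Peak heights at shared regions also differed between these chromosomes. The height balance is the mean relative pileup of the 3 sparse-leaning lines minus that of the 3 dense-leaning lines. Its median was −0.71 on chromosome 19, −0.60 on 22, −0.55 on 17 and −0.79 on 21, and it was 0.40 on chromosome 18 and 0.36 on chromosome 3. Over 23 chromosomes the dense-leaning percentage of members had a Pearson r of −0.967 and a Spearman rho of −0.948 with this balance, and an r of −0.958 without chromosomes 17 and 19. Where the shared peaks of one side were higher, members of that side were thus also more numerous. In the other ways to divide the lines, r ran from −0.687 to −0.933. The sides were chosen from the same heights, so the place of their r among these values supports nothing. Both quantities come from the same 6 libraries. Centring on each line's median removes a uniform depth difference from the balance, but not from the peak calls. Differences between libraries that vary between or along chromosomes stay in both quantities. The part of depth and of such differences was not tested.

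**Figure D4:**
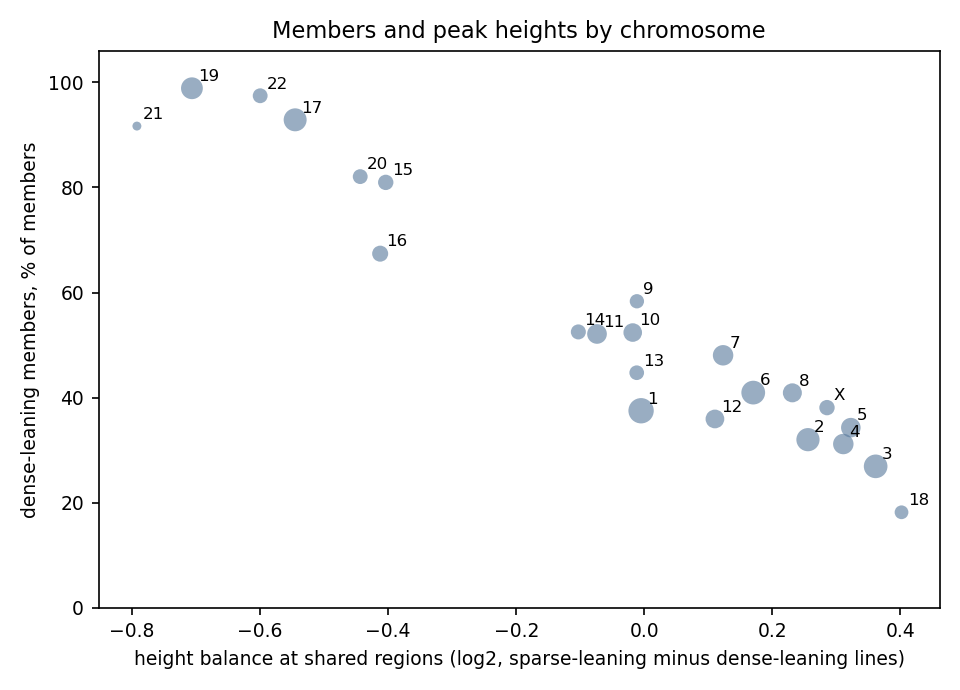
Dense-leaning members as a percentage of all members of a chromosome (vertical axis) against the median height balance at shared regions (log2, sparse-leaning minus dense-leaning lines). Each point is a chromosome, with its area growing with the number of members; chromosomes 19, 22, 17 and 21 stand at the upper left and chromosome 18 (18.2%, balance 0.40) at the lower right.

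Parts of single chromosomes differed in the same way. Each chromosome was divided at its largest stretch without merged regions. On chromosome 6 the part below 62472628 held 13 sparse-leaning and 29 dense-leaning members at a height balance of −0.15, and the part above it 49 and 14 at a balance of 0.48. On chromosome 4 the part below 52708766 held 5 and 10 members (balance 0.02), and the part above it 48 and 14 (0.38). Over 44 parts with at least 5 members, r was −0.922. In some of these places a single line stood far from the others. HBP-ALL had a relative pileup of −0.66 on chromosome 3 below 93560488, where 37 members were sparse-leaning and 8 dense-leaning. MOLT-4 stood at −0.60 on chromosome 18, and TALL-1 at 1.06 with KOPT-K1 at −0.69 on chromosome 21.

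The balance also held locally. The median height balance of shared regions within 500 kb was 0.34 around the 626 sparse-leaning members that had any, −0.29 around 721 dense-leaning members and 0.14 around all merged regions. It was above 0 for 82.7% of sparse-leaning members and 31.6% of dense-leaning members, against 60.6% of all regions. Merged regions were also put into 5 equal groups by this balance. In the group with the lowest balance 353 dense-leaning and 35 sparse-leaning members were found, and in that with the highest 48 and 217. Within these groups the density classes differed to varying degrees. From the lowest balance to the highest, the dense-leaning share of members in the sparsest class was 90.3%, 48.7%, 30.2%, 33.3% and 11.2%. In the densest class it was 90.7%, 69.9%, 40.6%, 40.6% and 30%, the last from 6 dense-leaning and 14 sparse-leaning members. In the lowest group the shares of the outer classes were nearly equal, with only 3 sparse-leaning members in the sparsest class. In the other groups the share was higher in the densest class, by most in the group next to the lowest and in the highest. Numbers were small here too: the sparsest class held 19 dense-leaning and 20 sparse-leaning members in the group next to the lowest, and 13 and 30 in the middle group. With the median balance of each chromosome subtracted, the local balance was still above 0 for 71.2% of sparse-leaning members, 42.7% of dense-leaning members and 57.6% of all regions.

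Members of both sides had lower peaks than shared regions. Median pileups at sparse-leaning members were 19 in CCRF-CEM, 20 in DND-41 and 18 in KOPT-K1, against 31, 40 and 36 at regions shared by all lines. At dense-leaning members they were 19 in HBP-ALL, 16 in MOLT-4 and 19 in TALL-1, against 39, 36 and 44. These pileups were close to those at other regions with peaks in 3 or 4 lines, which had medians of 16 to 19. Merged widths had medians of 560 bp and 574 bp on the 2 sides, against 880 bp at shared regions; joining several intervals widens a region by construction. All 3 own-side peaks reached a −log10 p of 10 in 260 sparse-leaning members (36.5%) and 213 dense-leaning members (28.1%), and the weakest peak lay under 6 in 118 and 130. Among these stronger members 23.1% of the sparse-leaning and 46.5% of the dense-leaning lay in the densest class.

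Within a side the lines did not contribute evenly. Peaks were ranked within each list by the authors' −log10 p, as percentiles. CCRF-CEM had the highest percentile of the 3 lines in 51.3% of sparse-leaning members, DND-41 in 27.2% and KOPT-K1 in 21.5%, and KOPT-K1 had the lowest in 45.4%. On the dense-leaning side HBP-ALL was highest in 45.8%, MOLT-4 in 27.3% and TALL-1 in 26.9%. CCRF-CEM also had the highest median fold enrichment at sparse-leaning members, 7.77 against 6.47 in DND-41 and 5.90 in KOPT-K1. At regions with peaks in 3 or 4 lines that were no members, these folds were 7.68, 5.92 and 5.90. The median percentile of CCRF-CEM was 47.6 at sparse-leaning members and 46.0 at those other regions. That of HBP-ALL was 35.6 at dense-leaning members and 38.1 at the others. High values of these 2 lines were thus not particular to members. Regions with fewer lines on the opposite side were weaker: the lowest of the 3 own-side percentiles had a median of 16.7 at sparse-leaning members without such a line, 19.3 with 1 line, and 29.4 at the regions with 2, just outside the rule. On the dense-leaning side these medians were 13.3, 17.3 and 27.5.

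The strongest members without any peak on the opposite side are named by that lowest percentile, and their pileups are given for each line of their side. The first sparse-leaning member, S1, lay on chromosome 6 at 147106089 to 147106606, with pileups of 26 in CCRF-CEM, 31 in DND-41 and 34 in KOPT-K1. The next, S2, lay on the same chromosome at 144996311 to 144997011, with pileups of 103, 35 and 40 in the same order. In S1 the lines stood close together, whereas in S2 CCRF-CEM was far above the other 2, in pileups not adjusted for depth. The percentiles were 71.2, 71.4 and 76.0 in S1 and 98.1, 71.2 and 78.2 in S2. S3 on chromosome 2, at 151523654 to 151523996, had pileups of 34, 37 and 30. Chromosome 18 held S4, at 40286453 to 40287407 (82, 56 and 28), and S5, at 21451206 to 21451777 (21, 42 and 27). S4 stood in a neighbourhood without any shared region within 500 kb, and the nearest peak of an opposite line was 422471 bp away. Shared peaks on chromosome 18 were low in MOLT-4, as given above, but not in the other opposite lines. Their relative pileups there were −0.013 in HBP-ALL and 0.076 in TALL-1. The remaining named members were S6 on chromosome 4 at 78656161 to 78656627, S7 on chromosome 12 at 46064193 to 46064775 and S8 on chromosome 4 at 181315567 to 181316148, with pileups between 20 and 35.

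Dense-leaning members without an opposite peak were led by a very narrow region. D1, on chromosome 16 at 16326250 to 16326483, was 234 bp wide, the narrowest dense-leaning member, and had pileups of 37 in HBP-ALL, 38 in MOLT-4 and 54 in TALL-1. Its fold enrichments, 17.1, 18.5 and 22.2, were far above the medians of 5.95, 5.64 and 5.50 for dense-leaning members in these lines. D2 on chromosome 12, at 75294045 to 75294594, had pileups of 59, 30 and 39, and D3 on chromosome 13, at 36920030 to 36921269, had 58, 26 and 63. In both MOLT-4 was the lowest of the 3. D4 lay on chromosome 7 at 51535246 to 51535788 (30, 25 and 29). These first 4 lay where shared regions were sparse, with 0 to 2 within 500 kb. The next 4 were on chromosomes 19 and 17, with 8 to 20 shared regions nearby. D5 lay on chromosome 19 at 1039851 to 1040257 (35, 29 and 36), D6 on chromosome 17 at 47308067 to 47308506 (20, 35 and 27), and D7 and D8 on chromosome 19 at 898582 to 899051 and 16295995 to 16296710, with pileups of 19 to 29.

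Members with 1 opposite line included higher peaks. The strongest sparse-leaning one lay on chromosome 4 at 149363198 to 149364222, with pileups of 155 in CCRF-CEM, 128 in DND-41, 102 in KOPT-K1 and 92 in MOLT-4, and no peak in HBP-ALL or TALL-1. The next 3 lay on chromosome 3 at 185826355 to 185827360, on chromosome 1 at 231557166 to 231558465 and on chromosome 10 at 111827767 to 111828166. In all 4 the opposite line was MOLT-4, and its pileup, not adjusted for depth, was below those of the 3 own-side lines. By percentile MOLT-4 was above KOPT-K1 on chromosome 4 (98.2 against 97.3) and above DND-41 on chromosome 1 (85.9 against 84.7). On chromosomes 3 and 10 it was lowest by percentile too. The strongest dense-leaning one was again narrow, 258 bp on chromosome 17 at 22253073 to 22253330, with pileups of 70 in HBP-ALL, 62 in MOLT-4, 48 in TALL-1 and 43 in KOPT-K1. No shared region lay within 500 kb of it. On chromosome 7 at 63385879 to 63387311 the opposite line, DND-41, was the highest with 124, above 89 in HBP-ALL, 46 in MOLT-4 and 98 in TALL-1. Chromosome 2 at 208030530 to 208031865 had 77 in DND-41 and 60 to 90 on the dense-leaning side, and chromosome 19 at 21182520 to 21183215 had 32 in DND-41 and 39 to 41. Just outside the rule, the strongest region with 2 opposite lines lay on chromosome 3 at 190231263 to 190232811 on the sparse-leaning side, with pileups from 91 to 277 in 5 lines. On the dense-leaning side it spanned 61970263 to 61970522 of chromosome 7. The largest stretch of that chromosome without merged regions ended just below it, at 61968698. The 4 lines whose pileup could be recovered at this region reached 414 to 759 tags, over local backgrounds of 96.5 to 184 tags. Filters applied to the lists are not known here, so such regions were not checked for repeated sequence.

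**Figure D5:**
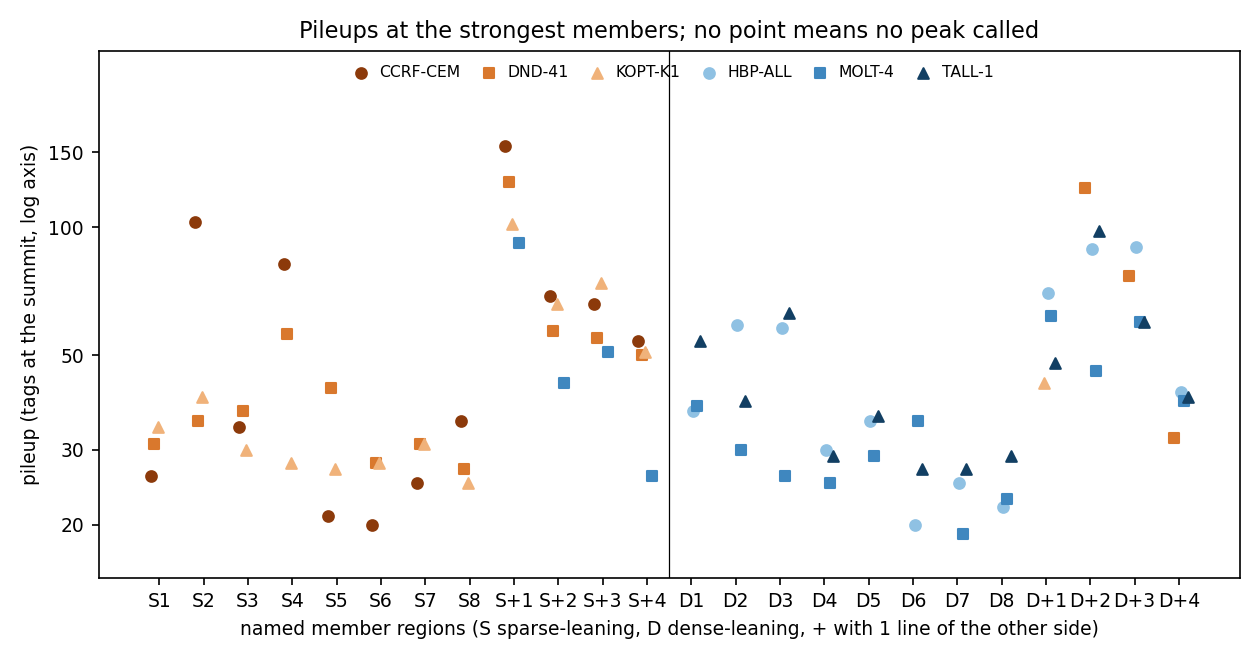
Pileup (tags at the summit, log axis) of each line at the named members; S1 to S8 and D1 to D8 have no peak on the opposite side, and those marked with a plus sign have 1 line of it. Every point is 1 library, and a missing point means that no peak was called; the first sparse-leaning member with 1 opposite line is the highest in the plot, at 155 in CCRF-CEM.

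Some members of a side lay near one another. The same share was not computed for other regions, so it does not set members apart. Joined across gaps of up to 100 kb, 103 sparse-leaning members (14.5%) fell into 48 chains of 2 or more, and 151 dense-leaning members (19.9%) into 66. The largest dense-leaning chain spanned 58.5 kb on chromosome 17, from 8093203 to 8151721, with 5 members among 7 merged regions. CCRF-CEM and KOPT-K1 had no peak in this span, DND-41 had 3 peak regions, HBP-ALL 5, TALL-1 6 and MOLT-4 7. A chain of 5 also lay on chromosome 17 from 41322112 to 41466332, where DND-41 had 9 of 10 regions, and 1 of 4 on chromosome 19 from 42637211 to 42784858. The largest sparse-leaning chains had 4 members each, on chromosome 8 from 82019033 to 82089033 and on chromosome 12 from 104682570 to 104863600. On chromosome 8 the sparse-leaning lines had peaks at 6 or 7 of 7 regions and each dense-leaning line at 3. A chain on chromosome 1 from 198899046 to 198906778, packed 3 members into 7.73 kb, with 3 peak regions in each sparse-leaning line and 1 in each of the others. A member of the opposite side lay within 100 kb of 5.20% of sparse-leaning and 4.49% of dense-leaning members. The part of the uneven division over chromosomes in these shares was not tested.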

How the data were processed

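ATAC-seq peak lists of 6 cell lines were used, 1 library each (paired-end reads of 150 bp, per the labels' protocols). The submitters' processing notes name MACS2 2.1.1.2016030, SAMtools, Picard, Bowtie2 and the build hg19; for settings, filters and any Tn5 shift, the sources used here give nothing. The deposited lists, read as narrowPeak, give a score, per summit, a fold ratio over local background, and p- and q-values as −log10. Lines outside chromosomes 1 to 22 and X were left out. Intervals overlapping by at least 1 bp were merged, keeping each line's strongest summit. Pileups were recovered from the deposited fold and −log10 p as whole tag numbers matching within 0.001 (99.9% or more of lines per library; −log10 p of 250 and above not tried). With 1 library per line there is no replicate error or test. Read totals are unknown, and only a relative tag depth was derived; binomial intervals cover counting error. Classes of region density split all merged regions at 2 and 5. Named regions follow a rule: by the lowest own-side percentile, the first 8 members without and 4 with an opposite line, the first 2 outside the rule (of which 1 per side is printed), and the 3 largest chains. Members, lists and rules were chosen with earlier results of these data known. The height balance, chromosome parts and gene density were added after seeing the data. Planned results on genes and sequence were not run. Merging, pileups and density were tested on simulated data. Tools were scipy 1.17.1, matplotlib 3.10.9, pandas 2.3.3, numpy 2.4.6 and Python 3.11.15.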

Additional observations from a re-analysis of the deposited data

How the results depend on the processing

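No paired analysis was possible because each line has 1 library. Directions held throughout: under each setting tried, sparse-leaning members lay more often in the sparsest class and less often in the densest than dense-leaning members. Density classes were cut anew from the merged regions of each setting, and shares over all regions are not given for them. Shares are therefore best compared between the sides within a setting. Leaving out 1 line at a time gave 1233 to 1637 sparse-leaning and 1258 to 2181 dense-leaning members, with 35.9% to 48.3% and 16.8% to 40.1% in the sparsest class, 16.1% to 23.9% and 31.6% to 48.4% in the densest, median densities of 3 to 4 and 4 to 6, and r over chromosomes of −0.964 to −0.935. With equal numbers of the strongest peaks the sparse-leaning side had 46.6% in the sparsest and 19.04% in the densest class, the dense-leaning side 23.8% and 43.8%, and the division came 3rd of 10. With a −log10 p of at least 10 everywhere, 48.7% of sparse-leaning members and 25.9% of dense-leaning members lay in the sparsest class and 48.7% of the latter in the densest, with a median density of 4; the division came 1st, the sparse-leaning set 7th and the dense-leaning set 2nd. Requiring that level only of own-side peaks left 260 and 213 members, with 22.1% and 46.5% of the dense-leaning ones in the outer classes. With gaps of 500 bp joined, or 250 bp around summits, the dense-leaning set came 7th. Without any opposite line 201 and 208 members were left, 14.9% of the former in the densest class; the sets came 5th and 4th, the division 3rd, and r was −0.845. Without chromosomes 17, 18, 19 and 21 the dense-leaning set came 11th, the sparse-leaning set 7th and the division 4th, and 48.1% of dense-leaning members lay in the densest class; without 17, 19 and 22, 21.6% lay in the sparsest and 46.7% in the densest (chosen after seeing the data). With density within 250 kb, 45.5% and 20.1% of sparse-leaning and 26.5% and 42.9% of dense-leaning members lay in the sparsest and densest classes, with medians of 2 and 3; within 1 Mb, 46.3% and 18.96% of sparse-leaning members, with medians of 6 and 11. The lean, densest minus sparsest group, within 1 Mb was 0.38 in TALL-1, 0.39 in MOLT-4, 0.19 in HBP-ALL, −0.18 in KOPT-K1, −0.17 in DND-41 and −0.61 in CCRF-CEM, and within 250 kb 0.31 in MOLT-4. With fold it was 0.072, 0.081, 0.032, −0.012, −0.041 and −0.17 in the same order. Of 90 medians of pileup, width and fold at members, 53 rose beyond their intervals, all with stricter peaks. Selecting peaks by p favours high pileup and fold by construction, because p is computed from the pileup and its background. The cause of the other changes, those in width included, was not tested. Unknown depth and 1 library per line limit every value. Gene distances were not run.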

Other observations

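The opposite line that shared a peak with a member went with where the member lay. Dense-leaning members shared with CCRF-CEM had a mean region density of 4.88 (99 regions), those shared with KOPT-K1 had 6.67 (210) and those shared with DND-41 had 7.51 (241). Sparse-leaning members shared with TALL-1 had a mean of 4.41 (108 regions), with 4.19 for HBP-ALL (176) and 3.84 for MOLT-4 (227). So 60.6% of dense-leaning members shared with DND-41 lay in the densest class, against 39.4% of those shared with CCRF-CEM. Members without an opposite line had a mean region density of 6.59 on the dense-leaning side (208) and 3.31 on the sparse-leaning side (201). Dense-leaning members shared with KOPT-K1 thus lay close to those without an opposite line, and those shared with DND-41 in denser surroundings.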
